A study of Caenorhabditis elegans with 4 samples.

Results

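The sites described here are the T09A5.8 ChIP-seq peaks on the left arm of *Caenorhabditis elegans* chromosome IV. They are all peaks of the authors' whole-series list on IV whose midpoint lies at or below position 5831279 (WormBase WS220), 1370 of 14075 peaks, or 66.4% of the 2063 peaks on IV. Position alone chose them. In the same interval ChIP replicate 1 has 396 of its 3666 peaks and ChIP replicate 2 has 413 of its 3867. The arm makes up 5.82% of the 100.272 Mb between the chromosome ends and holds 9.73% of the whole-series peaks, 10.8% of the replicate 1 peaks and 10.7% of the replicate 2 peaks.

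The protein was precipitated from adult hermaphrodites of the strain *fem-2(b245)*, genotype *fem-2(b245)III*, kept at 20 °C, and the 4 samples form 2 groups, ChIP and input DNA, with 2 replicates each. Every sample carries the same allele, so no wild-type or *cec-3* mutant worms enter any comparison. The stage is labelled as young adult with a germline, while the growth protocol describes gravid adults, and whole worms were ground, so the peaks average over all tissues. No label ties the replicates to separate cultures, and their spread may be technical. The lists carry no read counts, so depth is unknown and the input has no list to compare with.

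T09A5.8 is the gene *cec-3* on chromosome II in the gene table of assembly WBcel235. CEC-3 is a chromodomain protein, one of a family of readers that bind histone H3 methylated at lysine 9, the mark that the methyltransferases MET-2 and SET-25 place on silent chromatin in this worm. Worm chromosomes have no single centromere. Their arms are rich in repeats and in this mark, and their centres are rich in broadly expressed genes. Which genes or repeats lie under the peaks was not analysed here, since the gene coordinates at hand are of a later build than the files.

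Along the arm the sites were gathered in a belt, with a sparse tip on one side and a nearly empty stretch on the other. In bins of 100 kb counted from the left end, peak coverage stayed at or under 15.3% in replicate 1 and 14.5% in replicate 2 over the first 8 bins. At 0.8 Mb it stepped up to 44.7% and 48.8%, and it fell to 3.12% and 6.9% in the bin that starts at 3.4 Mb. The limits of the 4 zones that follow, 0.8, 3.4 and 5 Mb, were set from these bins after their values were seen, so the zones are a description with no test.

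The belt from 0.8 to 3.4 Mb is 44.6% of the arm and held 1046 of the 1370 whole-series peaks, or 76.4%. It held 81.0% of the covered bases of the arm in replicate 1 and 81.1% in replicate 2. Peaks lay there at 119.6 per Mb in replicate 1 and 123.8 per Mb in replicate 2, a mean of 121.7 ± 2.99 (SD, n = 2), and covered 40.9 ± 0.812% of the bases. The tip from the left end to 0.8 Mb had 32.5 peaks per Mb in both replicates and 7.85 ± 0.139% of its bases covered. The inner zone from 3.4 to 5 Mb averaged 35.9 ± 0.442 peaks per Mb and 10.97 ± 0.0202% covered (SD, n = 2 for each). It was uneven, with a second rise. Coverage was 0% in both replicates from 3.9 to 4.0 Mb and 31.2 ± 2.66% from 4.0 to 4.1 Mb, and by segments of 500 kb it was 9.28 ± 0.297% from 3.5 to 4.0 Mb, 18.6 ± 0.246% from 4.0 to 4.5 Mb and 6.20 ± 0.0574% from 4.5 to 5.0 Mb. Beyond 5 Mb replicate 1 had 2 peaks and replicate 2 had 7, which covered 0.79% and 1.71% of the bases.

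**Figure D1:**
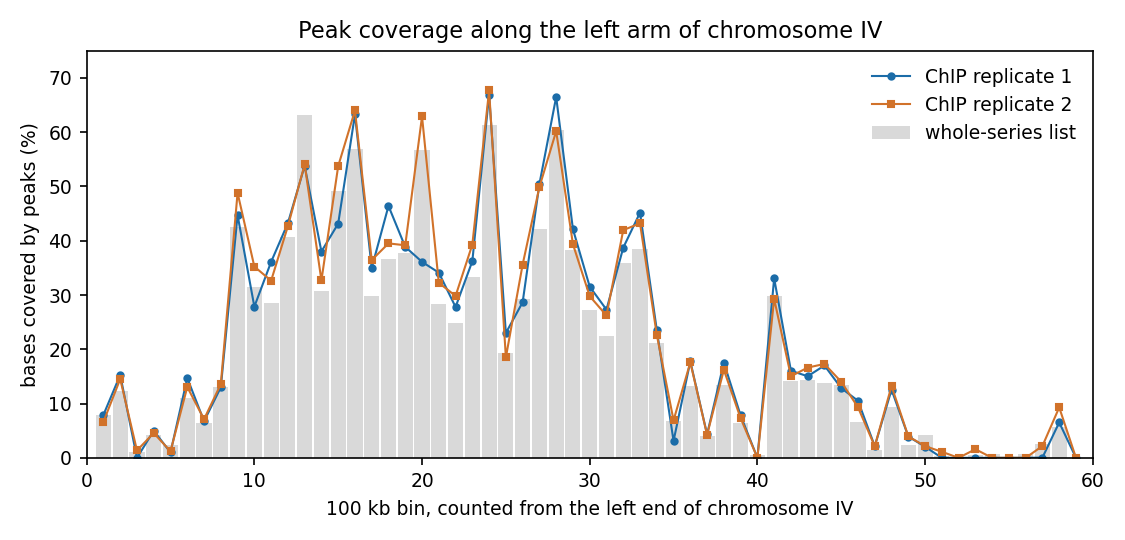
Share of bases covered by peaks (y axis, %) in each of 59 bins of 100 kb (x axis, counted from the left end of chromosome IV; the last bin is shorter) for the whole-series list (grey bars), ChIP replicate 1 (blue circles) and ChIP replicate 2 (orange squares). Coverage rises in bin 9, stays high to bin 34, rises again at bin 41 and is close to 0 from bin 51 on except near bin 58; the replicates part most in bin 20, with 36.1% and 62.9%.

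The zones differed in how many peaks they held more than in the width of those peaks. The median whole-series width was 392 bp in the tip, 429.5 bp in the belt, 363 bp in the inner zone and 264 bp beyond 5 Mb. The median whole-series score, which the authors' peak caller assigned on a scale that is not stated, was 6, 7.09, 6.36 and 6 in that order. Of the peaks of 10 kb or more, 15 of 17 in replicate 1 and 19 of 21 in replicate 2 lay in the belt, which holds 78.5% and 78.0% of the replicate peaks of any width, and the other 2 of each list lay in the inner zone. Of the whole-series peaks of all chromosomes, 53.8% overlapped a peak of both replicates by at least 1 bp. On this arm the share was 57.0% in the tip, 59.2% in the belt and 55.5% in the inner zone. Beyond 5 Mb it was 3 of 22 peaks, 13.6% (95% Wilson interval 4.75 to 33.3%).

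The outer part of the arm held more sites than the inner part of equal length. With the arm split at 2.92 Mb, replicate 1 had 298 peaks outside and 98 inside, and replicate 2 had 306 and 107. The log2 ratio of outer to inner density was 1.60 in replicate 1 and 1.52 in replicate 2, a mean of 1.56 ± 0.0626 (SD, n = 2), or 2.95-fold. The difference exceeded counting error in each replicate (two-sided exact binomial tests, p = 1.5e-24 for replicate 1 and 2.7e-23 for replicate 2). The tests treat each peak as an independent count, although the peaks gather in the belt and neighbours may not be independent. The p-values therefore speak of counting error only and may be far too small. In the whole-series list 1006 peaks lay outside and 364 inside. Over the first 5 Mb alone, again split in the middle, the mean log2 ratio was 0.62. This limit leaves out the nearly empty inner end and also moves the split nearer the left end, within the belt. How much of the lower ratio goes with each change was not tested. The value is given with no test because that limit was set from the bins.

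The longest stretches without a whole-series peak also lie at the inner end. The longest, from 5023582 to 5273322, is 249.7 kb. No replicate peak lies wholly inside it, and the edges of 2 peaks of replicate 2 reach 874 bp into it. The next, from 5359708 to 5556999, is 197.3 kb and held no peak of either replicate. The third, of 99.04 kb from 522480 to 621521, lies in the tip. There too no replicate peak lies wholly inside, and the end of 1 peak reaches 303 bp into it in replicate 1 and 351 bp in replicate 2. Between these extremes the members were packed closely, with a median distance of 410 bp to the next member against 389 bp over the whole list. Distances of up to 500 bp made up 53.5% here and 54.9% over the whole list.

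Compared with the rest of chromosome IV the left arm was the dense end. It had 67.9 peaks per Mb in replicate 1 and 70.8 in replicate 2, and its peaks covered 22.2% and 22.8% of its bases. The right arm of equal length had 24.7 and 27.3 peaks per Mb with 6.34% and 6.49% covered, and the centre had 11.3 and 12.9 peaks per Mb with 3.25% and 3.57% covered. The ranges of the replicates did not overlap. The left arm had 43.4 ± 0.243 peaks per Mb more than the right arm (SD over 2 replicates; two-sided exact sign-flip permutation test, p = 0.5, the smallest that 2 replicates allow). Replicate 2 was the higher in all 3 parts of IV.

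The right arm of V, picked for comparison because its replicate peak density is similar, had 70.3 and 73.6 peaks per Mb. That is 2.54 ± 0.270 per Mb above the left arm of IV (the same exact sign-flip test, p = 0.5), in the same direction in both replicates. The gap between replicates was 2.92 per Mb on the left arm of IV. Since the right arm of V was picked by this density, the likeness was set by the choice and the test cannot speak to it. In the whole-series list the arms were less alike, with 310.0 peaks per Mb on the right arm of V and 234.9 on the left arm of IV. The arms also parted in coverage and in how the lists relate. On the right arm of V the whole-series list covered more than the replicates, 35.6% against 27.8 ± 1.00%, while on the left arm of IV it covered less, 20.7% against 22.5 ± 0.43% (SD, n = 2). These differences were not tested.

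**Figure D2:**
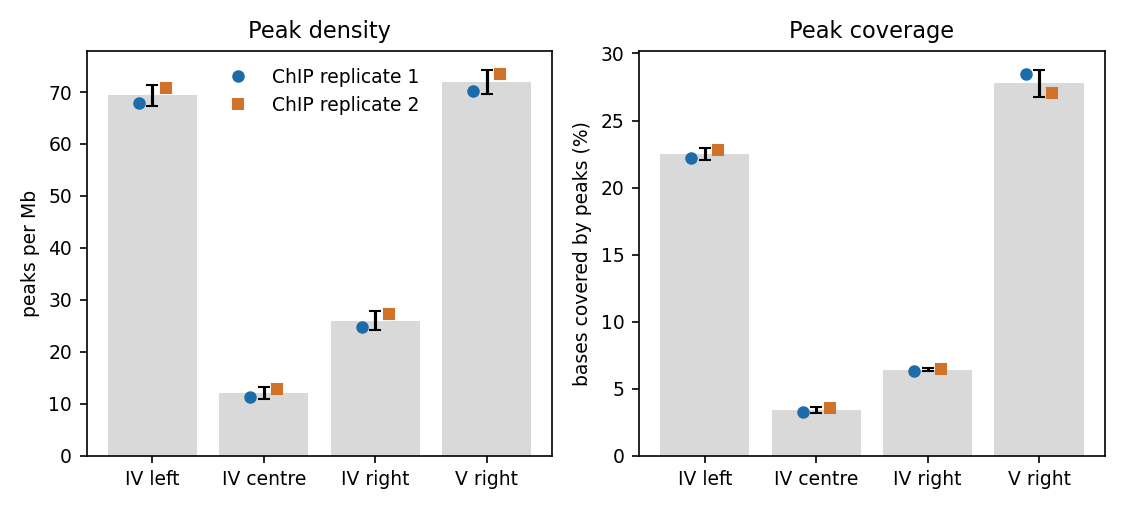
Peaks per Mb (left panel, y axis) and share of bases covered by peaks (right panel, y axis, %) in the left arm, centre and right arm of chromosome IV and the right arm of V (x axis). Bars are means of the 2 ChIP replicates, error bars are SD and points are the replicates. On IV the left arm stands at 69.4 peaks per Mb against 12.1 in the centre and 26.0 in the right arm.

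In width and whole-series score, individual peaks of the arm resembled those of the whole list. The members' widths ran from 146 to 20675 bp with a median of 411 bp, against 395 bp over all chromosomes, and their scores from 1.34 to 109.62 with a median of 6.73 (6.72 over all chromosomes). In replicate 1 the median width was 2194.5 bp here and 2067.5 bp over all chromosomes, and in replicate 2 it was 2020 bp and 2043 bp. Median replicate scores, on a scale of their own, were higher here, 455.3 against 381.3 in replicate 1 and 583 against 449 in replicate 2. The right arm of V was above the whole lists as well, with medians of 474.5 and 537.3. Peaks at 3100, the value at which replicate scores pile up, were no more common here. They made up 11.4% against 12.2% over all chromosomes in replicate 1 and 13.6% against 14.5% in replicate 2. The arm held 0 of the 10 highest-scoring whole-series peaks, 2 of the 25 highest, 11 of the 100 highest and 95 of the 1000 highest, the last being 9.5% where the arm holds 9.73% of all peaks. Wide members scored high, with a Spearman's rho of 0.801 between width and score over 1370 members and 0.776 over the 14075 peaks of the list, a description in which both values come from the same call.

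Most members overlapped peaks of both replicate lists, as did most peaks of the whole list. The lists come from the same series, so this overlap is not an independent recovery. A peak of both replicates overlapped 791 members by at least 1 bp, 57.7% (95% Wilson interval 55.1 to 60.3%, counting error only). Over the whole list the share was 53.8%. A further 117 members met a peak of replicate 1 alone and 137 of replicate 2 alone. Neither replicate had a peak at 325 members, 23.7%, against 27.0% over the whole list. The members in both had a median width of 746 bp and a median score of 11.2, and those in neither 215 bp and 4.35. By bases, the members in both made up 81.7% of what the members cover and those in neither 7.83%.

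Overlap with the replicates rose with the whole-series score. With the members ranked into 4 groups of equal number, 31.8% of the lowest group, 37.7% of the next, 66.7% of the third and 94.8% of the highest were found in both replicates. The highest group, with scores from 13.45, had 8 of 343 members with no replicate peak, and the lowest had 161 of 343. Since wide peaks score high and are more easily met by another peak, score and width cannot be told apart in this rise. The same shares over the whole list are not given here, so the rise is not shown to be particular to the arm.

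**Figure D3:**
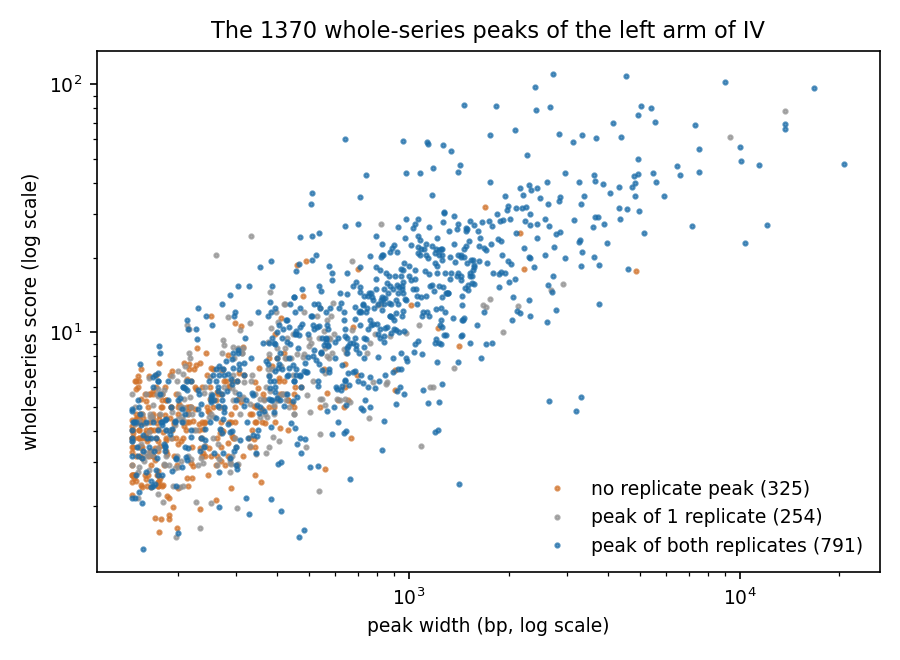
Whole-series score (y axis, log scale) against peak width (x axis, bp, log scale) for the 1370 members, coloured by whether a peak of both replicates (791), of 1 replicate (254) or of neither (325) overlaps them. Members without a replicate peak gather at the narrow, low-scoring corner, and few of them exceed a score of 13.45.

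The replicate peaks were wider units, of which most took in more than 1 member. In replicate 1 a peak covered a median of 2 members and up to 13. There 160 of 396 peaks, 40.4%, met a single member and 42 of 396 peaks, 10.6%, took in 5 or more. In replicate 2 the median was 2 and the highest 13. There 170 of 413 peaks, 41.2%, met a single member and 36 of 413 peaks, 8.72%, took in 5 or more. In replicate 1 the peak with 13 members is also the widest of the arm, from 1263469 to 1289845, 26377 bp with a score of 2540. Its counterpart in replicate 2, from 1264600 to 1289853, is the widest there at 25254 bp and scored 1045.92. All but 4 peaks of replicate 1 and 2 of replicate 2 overlapped a member.

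Between the replicates 359 of the 396 peaks of replicate 1, 90.7% (95% Wilson interval 87.4 to 93.1%), were overlapped by replicate 2, against 89.0% over all chromosomes. For replicate 2 the count was 357 of 413, 86.4% (82.8 to 89.4%), against 85.3%. The shares here are thus near those of the whole lists. At the level of bases the replicates shared 1154 kb, which is 89.2% of what replicate 1 covers and 86.8% of what replicate 2 covers. Unshared peaks were narrower in the median, 1122 bp against 2352 bp in replicate 1 and 1180 bp against 2174 bp in replicate 2, and scored 86.1 against 550.1 and 113.2 against 686.8.

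Where 1 peak met 1 peak, which leaves out regions that the replicates split differently, the replicates placed the borders close together. In 267 such pairs the starts differed by a median of 86 bp and the ends by 78 bp, and 55.1% of starts and 58.1% of ends lay within 100 bp of each other. The largest shift of a start was 8308 bp and that of an end 2280 bp. The scores of these pairs had a Spearman's rho of 0.911. Over all 393 overlapping pairs, in which one wide peak can meet several, it was 0.71, against 0.75 over the 3547 pairs of all chromosomes. Over the 320 pairs of the arm with neither score at 3100 or above it was 0.615. The value 3100, at which replicate scores pile up, was carried by both peaks in 40 pairs. Pairs along a chromosome are not independent, so no p is given.

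**Figure D4:**
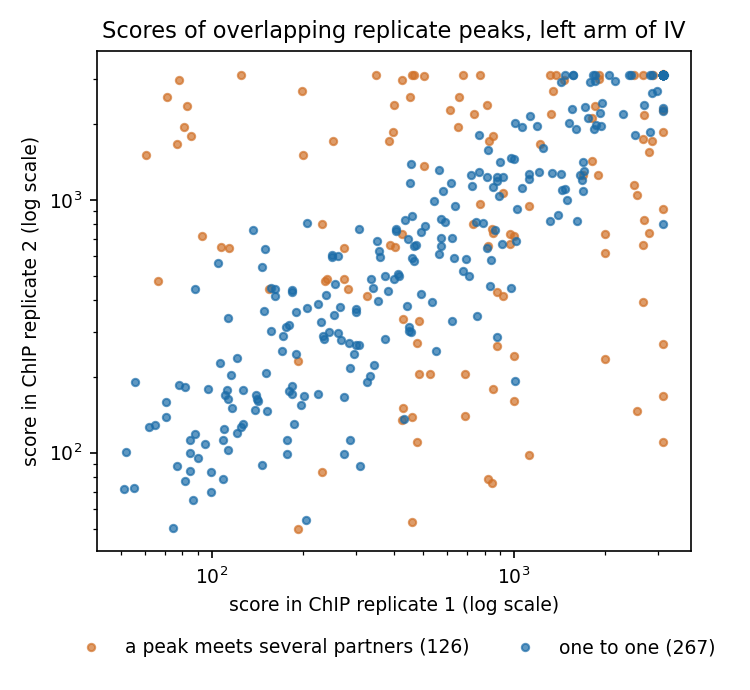
Score in ChIP replicate 2 (y axis, log scale) against score in ChIP replicate 1 (x axis, log scale) for the 393 overlapping pairs of peaks on the left arm of IV. The 267 pairs that match one to one (blue) lie in a rising band, and pairs in which a peak meets several partners (orange) scatter to both sides; points collect at 3100 on both axes.

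The 10 highest-scoring members were all found in both replicates, and 8 of them lie in the belt. The highest, from 1496302 to 1499018, scored 109.62, rank 22 of the whole list, and each replicate has a peak of score 3100 around it, 1496002 to 1499408 in the first and 1496133 to 1499206 in the second. The second, from 2704926 to 2709457, scored 107.82 with 3100 in both replicates. Both are compact sites, 2717 and 4532 bp wide.

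The next 2 in score stand outside the belt, in the sparser inner zone. They lie from 4207645 to 4216695, with a score of 101.82, and from 4317258 to 4319664, with 97.86, and both carry 3100 in both replicates. The 100 kb bins around them were covered to 15.8 ± 1.13% and 17.2 ± 0.20% (SD, n = 2), so high scores were not limited to densely covered bins. A similar compact site at the inner edge of the belt, from 3384020 to 3385489, is only 1470 bp wide and scored 82.77. Its replicate scores were 2974.82 and 2701.35, both below the pile-up value.

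The fifth highest, from 1272745 to 1289533, is a broad one of 16789 bp with a score of 96.29, and it makes up most of the widest replicate peaks named above. The other 4 lie from 854183 to 856020 and from 2782914 to 2787955, both with a score of 81.72, from 2390263 to 2392929 with 80.90 and from 2192109 to 2197491 with 80.05. The one at 2782914 carried 3100 in replicate 2 and 1909.6 in replicate 1, where it is the end of a peak of 21750 bp. The other 3 carried 3100 in both. The widest member of all, 20675 bp from 1545587 to 1566261, scored 47.71 in the whole-series list, and the replicate peaks on it carry 3100.

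The most covered bins were spread over the belt. As means of the replicates, 67.3 ± 0.586% of bases were covered from 2.3 to 2.4 Mb, 63.6 ± 0.518% from 1.5 to 1.6 Mb, 63.3 ± 4.45% from 2.7 to 2.8 Mb, 53.9 ± 0.188% from 1.2 to 1.3 Mb and 50.2 ± 0.397% from 2.6 to 2.7 Mb (SD, n = 2 for each). Coverage exceeded 30% in 23 of the 59 bins and was under 5% in 16. The 6 most covered bins held 26.5% of the covered bases. In 57 bins the replicates lay within 10 percentage points of each other, with a median difference of 1.16 points.

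The exception in the middle of the belt was the bin from 1.9 to 2.0 Mb, covered to 36.1% in replicate 1 and 62.9% in replicate 2, and to 56.7% in the whole-series list. The other bin beyond 10 points was that from 1.4 to 1.5 Mb, with 43.1% and 53.7%. In both, replicate 2 was the higher.

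Joining members over gaps of up to 500 bp gave 637 domains, 354 of them a single peak. Of these, 19 were 10 kb or wider, and 18 of the 19 lie in the belt. Joined in the same way, the peaks of all chromosomes gave 265 such domains, of which the arm has 7.17%, while it has 9.73% of all peaks. Unjoined whole-series peaks of 10 kb or more went the other way, at 0.73% of members against 0.54% of the whole list. The replicate lists were split, with 4.29% here against 5.29% over all chromosomes in replicate 1 and 5.08% against 4.86% in replicate 2. The 19 contain 147 members and 24.2% of the bases that the members cover. They were built differently. The widest, 25837 bp from 2763141 to 2788977, and the next, 25816 bp from 1263718 to 1289533, have 13 members each. The third, from 1545587 to 1566698, has 2. Another, 20992 bp from 890320 to 911311, is made of 22 members of which the highest scores 14.84. The only wide domain outside the belt spans 4394047 to 4407509, 13463 bp in the inner zone.

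The replicates covered 14 of the 19 wide domains over 80% each, and where a domain was covered less, replicate 1 was the lower in 5 of 5. In 3 of them replicate 1 had no peak at all. The same counts over the 265 domains of all chromosomes are not given here, so these are not shown to be particular to the arm. Over all chromosomes replicate 1 had 194 peaks of 10 kb or more and replicate 2 had 188. On this arm they had 17 and 21. A pair of neighbouring domains, from 1960092 to 1974312 and from 1974825 to 1985008, falls in a stretch of 31.7 kb without a peak of replicate 1. Replicate 2 has a peak of score 3100 on each, one from 1960129 to 1974069 and one from 1974909 to 1985270, and covers 98.0% and 99.2% of them. These are the highest-scoring peaks of replicate 2 on the arm that replicate 1 lacks, while the highest-scoring peak that replicate 2 lacks scored 200.56.

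The domain from 890320 to 911311 was covered to 37.0% in replicate 1 and 96.3% in replicate 2, and that from 1422051 to 1440764 to 29.0% and 98.8%. The fifth, from 1244550 to 1263153, was covered little by either, with 0% in replicate 1 and 16.2% in replicate 2, where a peak of score 436.24 takes in its outer end, while members cover 92.3% of it. It abuts the widest replicate peaks, which begin at 1263469 in replicate 1. Of the 5 highest-scoring members without a replicate peak, 2 lie in it, from 1260953 to 1262648 with a score of 31.88 and from 1249222 to 1251444 with 18.01. The others of that kind lie from 2828444 to 2830610 (25.11), from 4927089 to 4927578 (19.42) and from 4922509 to 4922966 (18.62).

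**Figure D5:**
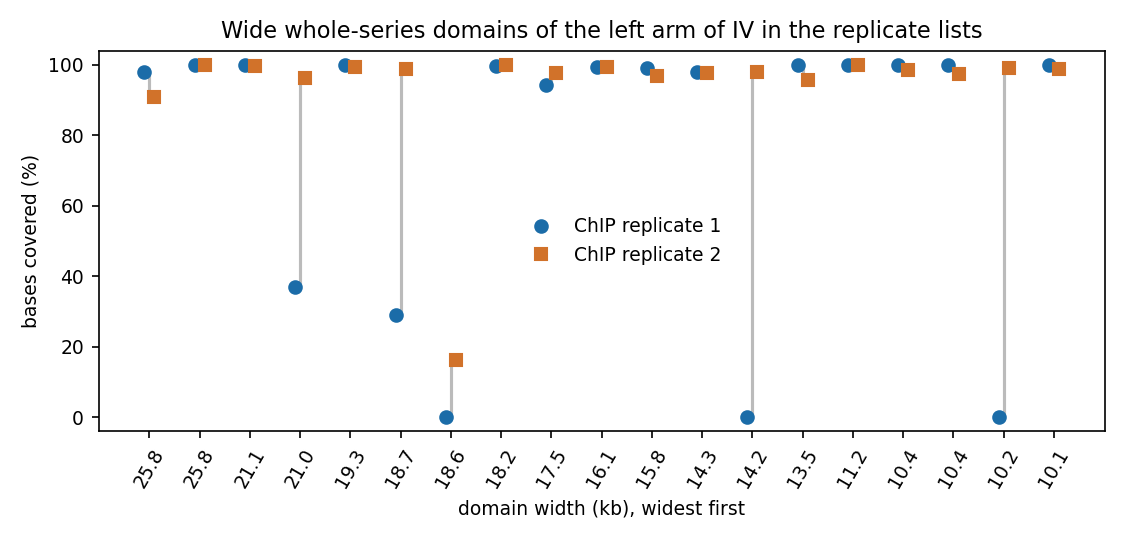
Share of bases covered by replicate peaks (y axis, %) for each of the 19 whole-series domains of 10 kb or more (x axis, width in kb, widest first), with ChIP replicate 1 as blue circles, ChIP replicate 2 as orange squares and a grey line joining them. In 14 domains both replicates exceed 80%, in 4 only replicate 2 does, and 1 domain of 18604 bp is below 20% in both.

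Bin by bin the whole-series list stayed close to the replicates. Its coverage minus the mean of the replicates ran from -7.92 to 9.15 percentage points. The largest positive difference was in the bin from 1.2 to 1.3 Mb, which holds the domain covered to 0% and 16.2% in the replicates, and the next, 7.23 points, in the bin from 1.9 to 2.0 Mb. The whole-series list was below the mean of the replicates in 44 of 59 bins. The most negative differences, of -7.92, -6.72 and -6.34 points, were in the bins that start at 2.6, 1.5 and 1.7 Mb.

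At the inner limit of the arm the choice of limit moved few sites. The last members inside lie from 5773628 to 5774474, with a score of 10.42 and a peak in both replicates, and from 5793913 to 5794183, with 3.02 and no replicate peak. The first peaks beyond lie from 5884171 to 5884325, with 4.67 and no replicate peak, and from 6005676 to 6006329, with 30.16 and a peak in both.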

How the data were processed

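The values are 3 peak lists that the authors deposited. Reads were aligned with BWA to ce10, per the submitters' processing notes, and positions are on WormBase WS220, per the file headers. Each ChIP replicate has a list from MACS and the whole series a list from MACS v2, per the source column. Not given in the sources used here are the thresholds, the control and the way the whole-series list was made from the samples. The score of each peak is the authors' own deposited value, of unstated scale. Replicate scores, which pile up at 3100 in both lists, were set beside each other, and whole-series scores were ranked only within their own list. Worms were fixed in 1% formaldehyde for 10 min, per the labels. Depth is unknown, and intervals cover counting error only.

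Lists were compared by overlaps of at least 1 bp. Each chromosome was cut into 3 equal parts, its length being the furthest peak end over the lists, and peaks were assigned by midpoint. Functions were tested on simulated peaks. The regions named are the 10 highest-scoring members, the 5 highest without a replicate peak, domains of 10 kb or more, extreme bins, the 3 longest gaps and the peaks beside the limit, plus others, such as the widest peaks and those that 1 replicate lacks, chosen after their values were seen. Members and comparisons were chosen with earlier results of these data known. Alternatives were other overlap rules, score limits, arm limits, bin sizes, joining gaps and single replicates. Software was scipy 1.17.1, numpy 2.4.6, pandas 2.3.3 and matplotlib 3.10.9 under Python 3.11.15.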

Additional observations from a re-analysis of the deposited data

How the results depend on the processing

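The alternatives gave 43 values. Leaving the log2 ratios aside, 20 moved by more than the replicate SD, a 95% interval or, for counts, 1.5 times. The left-over-right ratio of IV and the outer-to-inner ratio stayed above 0 in all 14 of theirs and were not counted as moved. Most of the 14 nevertheless differed from the reported ratios by more than the replicate SDs, 0.058 and 0.063. The comparison with the right arm of V was made in the replicate and whole-series lists, with no other alternative. The share of members found in both replicates, 57.7%, was 53.7% when an overlap needed 50% of the shorter peak, 63.2% with replicate peaks widened by 250 bp, 80.1% among members with a score at or above the median of the list, and 66.3 to 67.7% against a single replicate. The share of replicate 1 peaks met by replicate 2 was 93.2% with widened peaks. Peaks per Mb were 234.9 in the whole-series list, 38.1 among the better-scoring replicate peaks and 87.6 on the left 4.37 Mb, a limit that leaves 1300 members, while 700 members scored at or above the median. The left-over-right log2 ratio of IV, 1.42, ran from 1.38 to 1.75, and was 1.81 by covered bases, chosen after seeing the data. The outer-to-inner ratio ran from 1.43 to 2.02 among the planned settings; leaving out the part beyond 5 Mb (0.62) was chosen after seeing the data as well. Spearman's rho moved from 0.71 to 0.911 for one-to-one pairs and to 0.615 without scores at 3100 or above; the cause was not tested. The 19 wide domains were 10 with gaps of up to 100 bp, 36 with gaps of up to 1000 bp, and 30 in either replicate list. With gaps of up to 1000 bp the domain covered to 0% and 16.2% in the replicates joins its neighbour into one of 44.98 kb. The most covered bins held 28.1% of covered bases with bins of 50 kb, 17.6% with bins of 250 kb, and 26.8 to 27.3% in single replicates. No paired analysis was possible because neither input sample, whose replicate numbers match those of the ChIP, has a list of peaks. Gene features and sequences were not analysed, since no genome or annotation of WS220 was used here.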
